A study of Spinacia oleracea with 12 samples.

Results

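Spo03956 and Spo11774 are the expansin genes that the study's text names for spinach leaf under a high nitrogen (N) supply, and they were taken by their gene IDs: 2 of the 25495 genes in the table. In the study's annotation Spo03956 matched Expansin-A9 and Spo11774 matched Expansin-like A1, both of Arabidopsis thaliana. The pair was chosen by its N difference in leaf in the study's own test of these libraries, so the leaf N values below are a description without a test. Spo11774 is also on the study's list for root, so its root N value is not an independent one.

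Expansins are secreted plant proteins that loosen the cell wall by weakening the contacts between cellulose and the matrix polysaccharides, without cutting the chains. The alpha-expansins (EXPA) carry this activity in acid-induced wall extension and take part in the growth of leaves, roots and root hairs. The expansin-like proteins A and B (EXLA, EXLB) belong to the same superfamily by sequence, and no wall-loosening activity has been assigned to them.

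RNA was sequenced from leaf and root of the spinach (Spinacia oleracea) variety Banjo, sampled at 6 weeks of age from plants kept in a growth chamber with N, given as calcium nitrate, at 200 ppm (high N) or 50 ppm (low N). Calcium was held equal with calcium chloride, and the other nutrients were the same. The 4 groups (high N leaf, low N leaf, high N root, low N root) held 3 libraries each, described as biological replicates, and the study's methods give 3 independent plants for RNA extraction. The values are FPKM, fragment counts scaled to the length of the gene and to the fragments that the library held on genes, so levels of different genes are compared per length here.

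The 12 libraries held 15627994 to 18608172 fragments on genes. The groups follow the sample titles, which the tissue field of the sample records contradicted for 6 libraries, the treatment field for 6 and the N supply in the source name for 3, all 3 of them low N root. The marker genes below check the tissue only, so the N labels rest on the titles. Of 6 chlorophyll-binding and photosystem genes, 6 separated leaf from root without overlap, with a summed level of 14600 to 21827 FPKM in leaf and 3.58 to 11.9 FPKM in root. Of 6 transporter genes set as root markers, 3 separated in the labelled direction, and the sodium transporter HKT1 (Spo18318) lay higher in leaf.

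The primers that the study lists for Spo03956 in RT-qPCR are shown because they are the sequences given for this gene ID. No spinach sequence was at hand, so their place in its transcript was not checked. The primers are 21 and 22 bases long, with 10 and 11 G or C, and are written 5′ to 3′ with no base singled out.
Spo03956 forward: aggaggcgagactatgtgtaa
Spo03956 reverse: ggccgtaaccttgtgtgtatag

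Spo03956, the alpha-expansin, was a leaf transcript of low level that was seen mostly under high N. In high N leaf its 3 libraries held 2.22, 1.50 and 5.21 FPKM, from 34, 26 and 90 fragments. In low N leaf they held 0.709, 0.0638 and 0.177 FPKM, from 11, 1 and 3 fragments. High N leaf replicate 3 stood at 2.80 times the mean of the other high N leaf libraries, and the N groups did not overlap. The means were 2.98 ± 1.97 FPKM and 0.317 ± 0.345 FPKM (SD, n = 3), a ratio of 9.41. On the log2(FPKM + 1) scale, which understates the change of so low a gene, high N leaf was 1.52 higher (SE 0.39). The ratio was 5.88 without high N leaf replicate 3 and 24.8 without low N leaf replicate 1.

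In root Spo03956 was at or near 0. The high N root libraries held 0, 0 and 1 fragment, and the low N root libraries held 2, 3 and 0. No root library exceeded 3 fragments, the limit that a count of 0 allows, so no root N fold is given and a difference was not detectable at this depth. High N leaf was at least 15.1-fold higher than high N root, with that limit taken per library, and the libraries did not overlap. Low N leaf and low N root did overlap, at 0.0638 to 0.709 against 0 to 0.171 FPKM. Since low N leaf and both root groups lay near 0, the tissue difference of this gene follows from the leaf N difference by which it was named, and no p-value is attached to it.

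Spo11774, the expansin-like gene, was present in every library and was mainly a root transcript. In high N leaf its libraries held 74.3, 32.7 and 18.2 FPKM, and in low N leaf 14.4, 10.4 and 5.52 FPKM. The N groups in leaf did not overlap, although the lowest high N library was close to the highest low N library, and within high N replicate 1 was 4.08 times replicate 3. The means were 41.8 ± 29.1 and 10.1 ± 4.43 FPKM (SD, n = 3), a ratio of 4.14 and a difference of 1.81 on the log2 scale (SE 0.52). Without high N leaf replicate 1 the ratio was 2.53. Among the 16522 genes tested for N in leaf, 7.28% had libraries that did not overlap and were higher under high N. Both expansins were named by that contrast, so nothing is read from their count of 2.

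**Figure D1:**
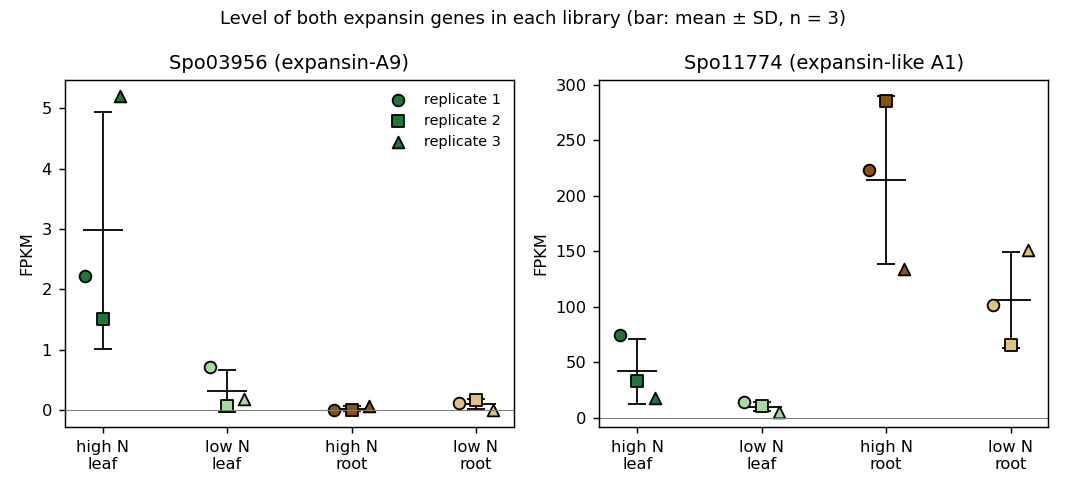
FPKM of Spo03956 (left) and Spo11774 (right) in each of the 12 libraries, by group, on linear axes of different range. Points are libraries, with replicates as circle, square and triangle, and bars give the mean ± SD over 3 libraries. Spo03956 reached 5.21 FPKM in high N leaf replicate 3 and was at or near 0 in root, whereas Spo11774 reached 285 FPKM in high N root replicate 2.

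The libraries of the same leaf group ranked differently for the pair. High N leaf replicate 3 had the highest Spo03956 level of all 12 libraries, 5.21 FPKM, and the lowest Spo11774 level of its group, 18.2 FPKM. High N leaf replicate 1 had the highest Spo11774 level in leaf and an intermediate Spo03956 level, 2.22 FPKM. Over the 12 libraries, which share 2 tissues and 2 N levels, Pearson's r between both genes on the log2(FPKM + 1) scale was -0.35, given as a description.

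In root the N question was asked of Spo11774 alone, because Spo03956 did not reach the mean of 1 FPKM that the fit required. The high N root libraries held 223, 285 and 134 FPKM, and the low N root libraries 101, 65.2 and 151 FPKM. The groups overlapped, since the lowest high N library, 134 FPKM, lay under the highest low N library, 151 FPKM. The means were 214 ± 76.1 and 106 ± 43.2 FPKM (SD, n = 3), a ratio of 2.02. The limma fit across 17881 genes gave a log2 difference of 1.02 (SE 0.38), with an unadjusted p of 0.0318 and a Benjamini-Hochberg adjusted p of 0.416. In that fit 4.63% of all genes had an unadjusted p under 0.05 with a higher level under high N, and 0.028% passed the adjustment. The study had listed Spo11774 for root from these same libraries, so its unadjusted p is not independent and nothing is read from it. The exact permutation test gave p = 0.2, two-sided, where 3 libraries against 3 cannot go below 0.1. The root N difference of Spo11774 therefore did not pass the test adjusted over all genes.

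Set side by side, the N difference was 1.52 in leaf for Spo03956, with root at the detection limit. For Spo11774 it was 1.81 in leaf and 1.02 in root. The leaf minus root difference of 0.78 for Spo11774 uses the contrast that named the gene and was not tested.

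The comparison of tissues did not use that contrast, and for Spo11774 it gave the widest difference. In the limma fit over all 12 libraries, which averages both N levels, root lay 2.88 above leaf on the log2(FPKM + 1) scale (SE 0.35), with an adjusted p of 1.49e-05 over 18411 genes. Among those genes 57.9% were called higher in root and 18.3% higher in leaf, and the median gene lay 0.54 higher in root, so a root call by itself was common. With median-of-ratios scaling between the libraries the median gene moved to 0.05, and Spo11774 was still 2.34 higher in root. The exact permutation test within N levels gave p = 0.005, two-sided, the smallest its 400 arrangements allow, with every root library above every leaf library of the same N level, as for 45.2% of the genes tested. The ratio of root to leaf was 5.13 under high N and 10.5 under low N. In whole tissue, fewer cells of a type and less RNA per cell cannot be told apart.

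The order of the Spo11774 means was high N root, low N root, high N leaf and low N leaf. Of the neighbours in that order, high N root and low N root overlapped, and so did low N root and high N leaf, where high N leaf replicate 1 at 74.3 FPKM lay above low N root replicate 2 at 65.2 FPKM. High N leaf and low N leaf did not overlap. For Spo03956 the order was high N leaf, low N leaf, low N root and high N root, and only the first step was without overlap. Among genes above 0 in a group, Spo11774 exceeded 97.8% in high N root, 94.7% in low N root, 88.6% in high N leaf and 60.5% in low N leaf. Spo03956 exceeded 36.8% in high N leaf and 13.2% in low N leaf.

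The study's lists of N-responsive genes name 9 expansins in all, the pair above and 7 others, so every one of them was listed for at least 1 tissue. Their summed level was 124 to 153 FPKM in high N leaf, 65.0 to 104 in low N leaf, 704 to 896 in high N root and 518 to 676 in low N root. Expansin-like B1 Spo09736 made up 48.8% to 70.4% of that sum in the root libraries. Spo11774 made up 19.0% to 31.8% of it in high N root and 9.65% to 29.2% in low N root. In leaf the largest mean share was that of Expansin-A4 Spo01779, at 34.7% to 59.8% in high N leaf and 35.3% to 50.5% in low N leaf, and Spo11774 gave 13.9% to 48.5% and 7.20% to 15.9%.

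Of the 9 expansins, 8 passed the filter for the tissue comparison, Spo03956 being the exception. In the limma fit, root exceeded leaf for 5 of these 8 at an adjusted p under 0.05, beside 57.9% of all genes. Leaf exceeded root for 2, beside 18.3%, among them Spo03896, which passed the filter only through high N leaf, the group that listed it. With median-of-ratios scaling the counts were again 5 and 2, beside 33.8% and 29.2% of all genes. The root count thus lay near the share of all genes only without that scaling, and nothing is read from it. The median difference was 2.22, beside 0.54 over all genes tested, and with median-of-ratios scaling it was 1.76 beside 0.05. Expansin-like B1 Spo09736 showed the widest root excess among the expansins, 5.45 (SE 0.36), at 275 to 551 FPKM in root and 1.71 to 15.7 FPKM in leaf. Spo18643, matched to rice Expansin-A1, followed with 5.25 (SE 0.31), and Spo16569, matched to the same rice protein, with 2.79 (SE 0.22). Both of these alpha-expansins were near 0 in high N leaf, at 0 to 0.0487 and 0 to 0.0953 FPKM. The second EXLB1 match, Spo09778, lay 1.66 higher in root (SE 0.21).

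Higher in leaf were the alpha-expansins Spo01779 and Spo03896. Spo01779 had a root minus leaf difference of -1.51 on the log2 scale (SE 0.32, limma adjusted p = 0.00106), at 22.9 to 74.1 FPKM in leaf and 8.91 to 41.8 FPKM in root. The 2 tissues overlapped through low N root replicate 2. Spo03896, matched to the putative rice Expansin-A30, resembled Spo03956. It held 2.42, 1.97 and 10.4 FPKM in high N leaf, 0, 0.394 and 0.909 FPKM in low N leaf, and at most 0.209 FPKM in root. Its tissue difference of -1.29 (SE 0.31) rests, as for Spo03956, on high N leaf, the group by which the study listed it, and the gene fell below the filter without high N leaf replicate 3. Expansin-A10 Spo08184 differed little between tissues, by 0.16 (SE 0.18, limma adjusted p = 0.435), and the sign turned to -0.36 with median-of-ratios scaling and -0.34 with quantile normalization.

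**Figure D2:**
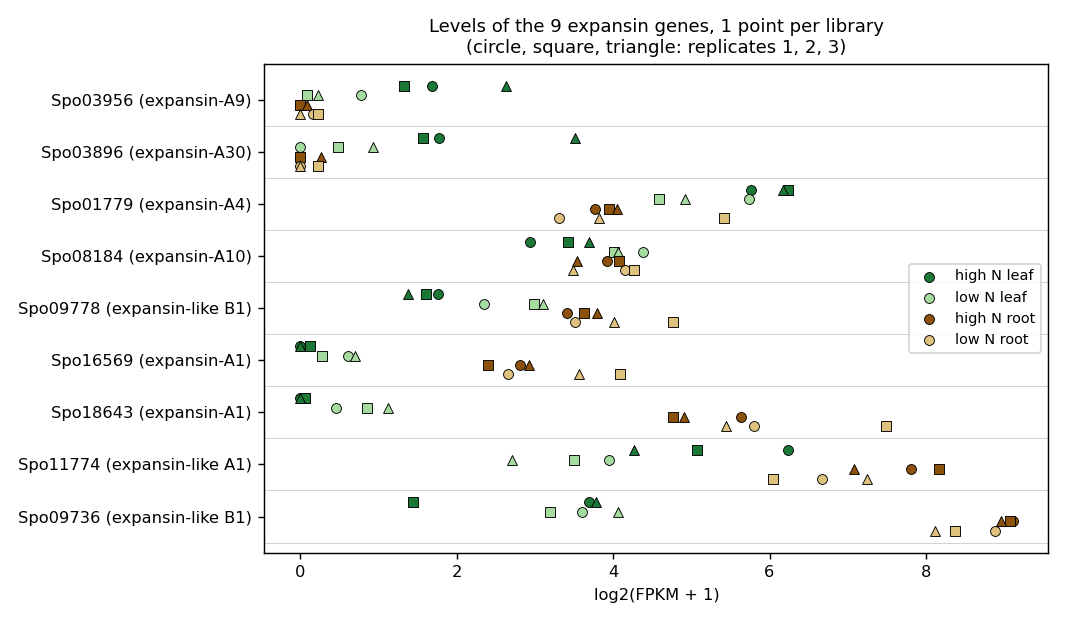
Level of the 9 expansins on the log2(FPKM + 1) scale, with 1 point per library, coloured by group and shaped by replicate. Spo03956 and Spo03896 lie to the left except in high N leaf, the root points of Spo11774 and Spo09736 lie to the right, and Spo08184 shows all groups close together.

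Low N root replicate 2 held the extreme level of several expansins in root. It had the lowest root level of Spo11774, 65.2 FPKM, and the highest root level of 6 of the 9 expansins. Among these were Spo18643 at 178 FPKM beside 54.8 and 42.6 in the other low N root libraries, and Spo01779 at 41.8 beside 8.91 and 13.1 FPKM. For Spo03956 the highest level was only 3 fragments, and for Spo08184 it was 18.2 beside 16.8 FPKM in another low N root library. The share of all genes highest in this library is not given, so nothing is read from the count. Without this library the root N difference of Spo11774 was 0.72 with an unadjusted limma p of 0.101, and the ratio was 1.70.

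The study lists 5 expansins that passed the root filter for leaf only, which means that its own test of these root libraries had not called them. Their root N values are therefore a description, with no test. All 5 differences had a negative sign, and their median was -0.49 beside -0.05 over all genes. Those of Spo11774 and Spo09736 (0.59, SE 0.23) were positive. The study lists both of these for root as higher under high N, so the contrast of signs is not read as a result. That median was -0.15 without low N root replicate 2 and -0.78 without low N root replicate 1. The differences were -1.14 for Spo18643 (SE 0.53), -0.73 for Spo16569 (SE 0.36), -0.49 for Spo09778 (SE 0.31), -0.26 for Spo01779 (SE 0.50) and -0.12 for Spo08184 (SE 0.25). The signs of Spo01779 and Spo08184 turned when low N root replicate 2 was left out, to 0.36 and 0.027. Spo09736, which the study lists for root only, held 495 to 551 FPKM in high N root and 275 to 470 FPKM in low N root. In leaf, where the study's test had not called it, its N difference was -0.65 (SE 0.62), given as a description, and it became 0.12 without high N leaf replicate 2.

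The wall genes next to the expansins in the study's lists gave the frame for these tissue differences. Xyloglucan endotransglucosylase/hydrolases (XTH) cut and rejoin the xyloglucan chains that lie between cellulose fibrils. Of 8 listed XTH genes, 6 were called higher in root and 2 higher in leaf in limma, with a median difference of 1.64, beside 57.9% and 18.3% of all genes and a median of 0.54. With median-of-ratios scaling these were 4 and 2, beside 33.8% and 29.2% of all genes. Among the 6 was Spo23061, which passed the filter only through low N root, the group by which the study listed it, at 13.7 FPKM. Its other group means were 0 to 1.68 FPKM, so its root call is not independent of that listing. XTH6 Spo09254 had the widest difference, with 0 FPKM in every root library. It held 54.4 to 88.6 FPKM in high N leaf and 118 to 210 FPKM in low N leaf. It was followed by XTH32 Spo10939, 4.83 higher in root (SE 0.27). The XTH genes absent from the study's list of a tissue had not passed its test there, so their N differences are values only. They were -0.65 for Spo10939 and -0.52 for Spo12226 in root, and -0.28 for XTH33 Spo10737 in leaf.

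Pectinesterases remove methyl groups from wall pectin, and their inhibitors hold them back. Of the 13 listed genes of this kind 9 passed the filter. Of these 4 were called higher in root and 5 higher in leaf, beside 57.9% and 18.3% of all genes, with a median of -1.18. Among the 5 was Spo18631, whose -1.18 was that median. It passed the filter only through high N leaf, the group by which the study listed it, at a mean of 4.61 FPKM. Its other group means were 0.251 to 0.705 FPKM, so its leaf call is not independent of that listing. Spo12742 and Spo17585, also among the 5, passed only through low N leaf, the group that listed them, at means of 8.18 and 6.44 FPKM. Their means in the other groups were at most 1.71 and 2.74 FPKM. Among the 4 higher in root, Spo12744 passed only through low N root, which listed it, at 5.12 FPKM beside at most 2.24 FPKM elsewhere. These calls are likewise not independent of the listings. The median was -0.14 without high N leaf replicate 3, where 4 and 4 were called, and it turned to 0.35 with a filter at 5 FPKM, which left 4 genes. The pectinesterase inhibitors Spo24242 and Spo02787 lay at the ends, with differences of 3.70 and -3.62, the first at 0 FPKM in every leaf library and the second at 0 FPKM in every root library. The pectinesterase Spo07760, which the study did not list for root, had a root N difference of -0.43, given without a test for the same reason.

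**Figure D3:**
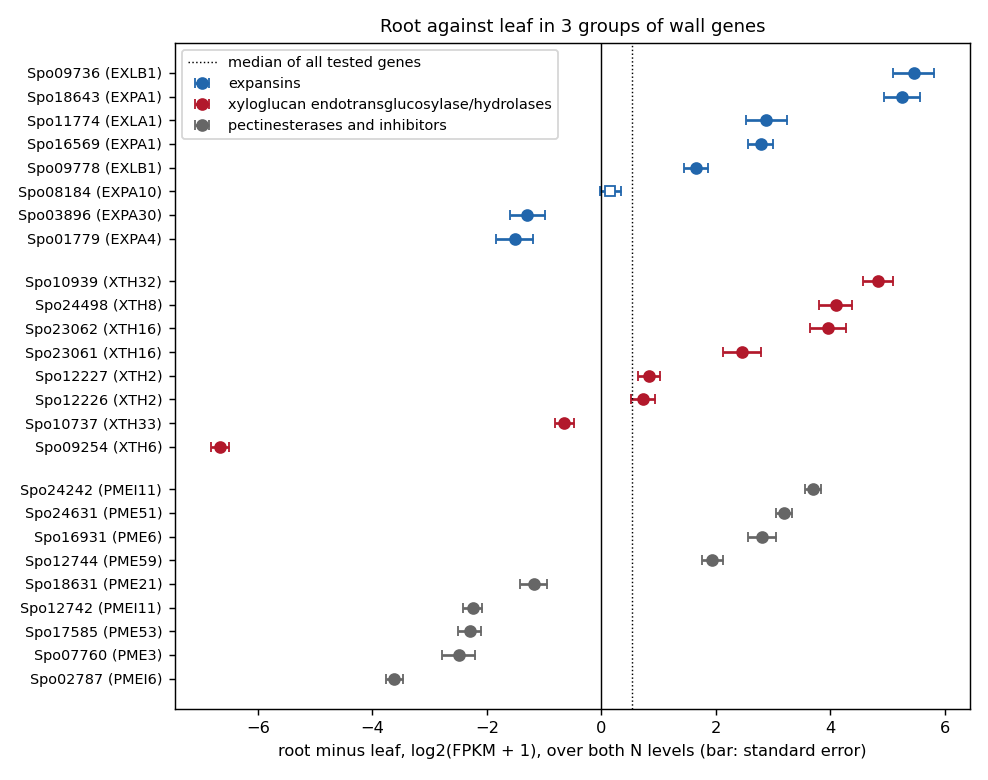
Root minus leaf difference on the log2(FPKM + 1) scale, averaged over both N levels, for the listed expansins, XTH genes and pectinesterases with their inhibitors that passed the filter. Bars are standard errors from limma, the open square marks the gene with an adjusted p of 0.435, and the dotted line marks the median of all genes tested, 0.54. Spo11774 lies at 2.88, after Spo09736 and Spo18643 among the expansins.

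The genes whose pattern was most like that of each expansin were taken by Pearson's r on the log2(FPKM + 1) scale over the 12 libraries, among 18411 genes. These correlations share the tissue difference, the N difference and the libraries, and they are a description. For Spo03956 the first was Spo18631, matched to pectinesterase/pectinesterase inhibitor 21, with r = 0.98. It held 3.25, 2.23 and 8.34 FPKM in high N leaf, and 0.364 to 0.923 FPKM in low N leaf. Like Spo03956 it was highest in high N leaf replicate 3. The next were Spo21801, Spo13272, Spo00699 and Spo25666, with r of 0.97 to 0.98 and no name in the study's lists. Over the leaf libraries alone, the r of these 5 genes with Spo03956 was 0.96 to 0.98. Over the root libraries alone, where Spo03956 was at or near 0, it was -0.02 to 0.83. All 5 had their highest level in high N leaf replicate 3, at 8.34 to 14.5 FPKM.

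A second gene matched to pectinesterase/pectinesterase inhibitor 21, Spo24109, and a gene matched to LAT59, a tomato pectate lyase known from anthers and pollen, Spo24383, were looked up after that library had been seen to stand apart. Spo24109 held 35, 36 and 158 fragments in high N leaf, 7 to 16 in low N leaf and at most 3 in root. Spo24383 held 5, 2 and 11 fragments in high N leaf, none in low N leaf and at most 1 in root. Both were again highest in high N leaf replicate 3, as were Spo03956 and Spo03896. Because Spo24109 and Spo24383 were chosen with that library known, their peak there is a description only. The part of floral tissue in these leaf levels was not tested.

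For Spo11774 the most similar gene was Spo13491, matched to galactokinase, the enzyme that phosphorylates free galactose, with r = 0.99. It held 43.5, 24.9 and 23.5 FPKM in high N leaf, 12.1 to 16.3 in low N leaf, 62.6 to 90.3 in high N root and 42.2 to 60.3 in low N root. Within a tissue, over 6 libraries each, its r with Spo11774 was 0.98 in leaf and 0.95 in root. Then came Spo23108, matched to a dynein light chain, Spo11442 with no name in the lists, Spo05963, matched to the spindle checkpoint protein MAD2, and Spo26834, matched to a mitochondrial alanine-glyoxylate aminotransferase 2 homolog, each with r = 0.98. All 5 were highest in high N root replicate 2, as Spo11774 was.

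**Figure D4:**
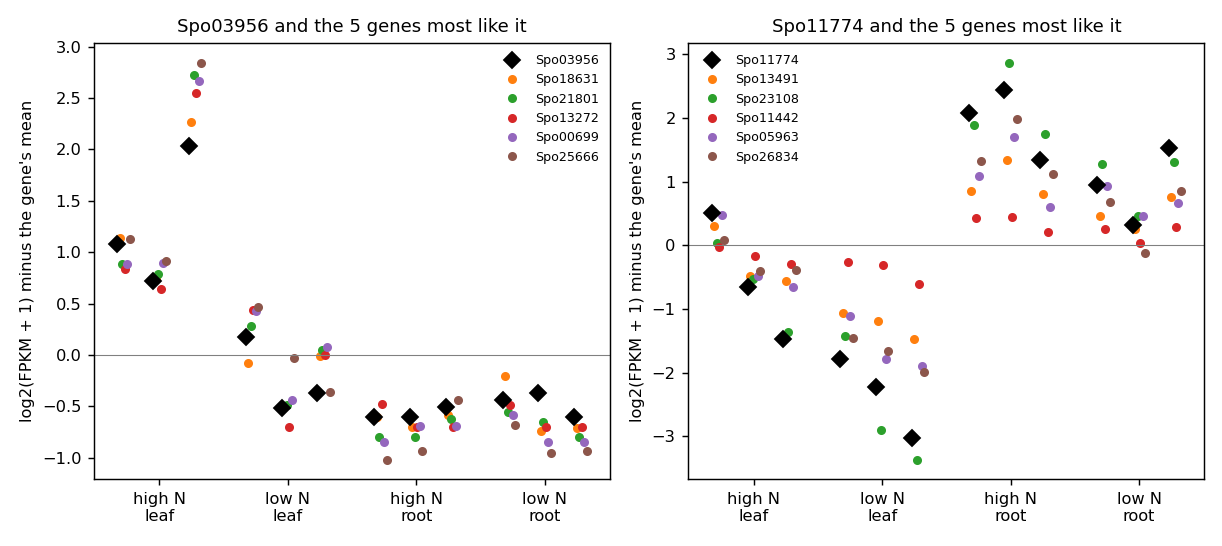
Levels of Spo03956 (left) and Spo11774 (right) as black diamonds, with the 5 genes most like each as coloured points, in every library. The y axis is log2(FPKM + 1) minus the gene's mean over 12 libraries, and the 3 positions in a group are replicates 1, 2 and 3. In the left panel all genes peak in high N leaf replicate 3, and in the right panel all peak in high N root replicate 2.

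Among the expansins themselves, Spo03956 ran closest to Spo03896, with r = 0.93 over 12 libraries, and then to Spo01779, with r = 0.79. Spo11774 ran closest to Spo09736, with r = 0.79, and to Spo18643, with r = 0.71, the other expansins of high level in root. The alpha-expansins Spo16569 and Spo18643, which share their best match, had r = 0.98 with each other. Reads that fit more than 1 expansin copy equally well could be split between such genes or lost in counting, and the values of Spo16569 and Spo18643, and of Spo09736 and Spo09778, are uncertain to that extent.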

How the data were processed

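Total RNA of 12 leaf and root libraries was sequenced as 150 bp read pairs. The authors deposited FPKM per gene. The study's methods give the SpinachBase genome and gene models, TopHat (v2.0.12, on a Bowtie index of v2.2.3) as aligner and HTSeq (v0.6.1) as counter, whereas the submitters' processing notes name fastp, HISAT2 2.1.0 and featureCounts. Strand and multi-copy settings are not given in the sources used here. The genome build is not named there either.

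Groups were taken from the sample titles. Fragments and gene lengths were worked back from the FPKM steps (whole within a relative 1e-06) for 23013 genes, which held at least 99.99% of each library's fragments. No library held any of 2480 genes, and 2 could not be worked back. The fragments are used for depth, for the fragment counts given, for the limit of 3 fragments and for a limma voom alternative. The step and the fits were tested on simulated data.

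FPKM values with a pseudocount of 1 were put on the log2 scale and fitted by limma (3.58.1, under R 4.3.3) with a variance trend, two-sided, with Benjamini-Hochberg adjustment over all genes with a mean of at least 1 FPKM in the libraries compared (6 of a tissue for N, 12 for root against leaf). No fit had a replicate term, because same-numbered libraries deviated together (r above 0.1 in every pair) for low N leaf with low N root alone. High N leaf with high N root fell short of that only through a lowest r of 0.09. A block within N level was run as an alternative. Exact permutation tests went through every arrangement in Python 3.11.15 with NumPy 2.4.6. P-values measure the spread between these libraries, and fragment limits cover counting error only.

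The genes named were the pair, all other expansins on the study's lists, the 2 XTH and the 2 pectinesterase genes of largest difference in each tested contrast, and the 5 genes most correlated with each of the pair. Outside that rule, Spo24109 and Spo24383 were looked up after high N leaf replicate 3 had been seen to stand apart. Spo23061, Spo12742, Spo17585 and Spo12744 are named for the group through which they passed the filter. Spo12227 and Spo24631 were flagged for N differences of opposite sign in leaf and root. N differences of genes that the study did not list for a tissue are given without a test, since its own test of the same libraries had set them aside. The members and lists were chosen with earlier results of these data known, and the lists come from the study's own tests on these libraries. Alternatives were another pseudocount (0.1), filter (none, or 5 FPKM), scaling (median of ratios, quantile), no variance trend, all groups in 1 fit, a replicate block, voom, and each library left out.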

Additional observations from a re-analysis of the deposited data

Results flagged for a closer look

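Among the listed wall genes, 2 had N differences of opposite sign in leaf and root, with no overlap between N groups in either tissue. They came from the 10 listed wall genes with a mean of at least 1 FPKM in both tissues, and 92 of all 15344 such genes, 0.6%, had the same pattern. Every listed gene had passed the study's own N test of these libraries in at least 1 tissue. The 0.6% of unselected genes is therefore not a like benchmark, and nothing is read from the count of 2. No test was made of the contrast between leaf and root effects for either gene, since the study listed both for both tissues, so these differences were not tested.

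Spo12227, matched to a soybean XTH2, held 48.5, 30.1 and 26.2 FPKM in high N leaf and 13.7, 9.61 and 15.1 FPKM in low N leaf. In root the order was the reverse, with 26.7, 28.8 and 34.2 FPKM under high N and 44.6, 36.2 and 66.9 FPKM under low N. The leaf N difference minus the root N difference was 2.01 on the log2(FPKM + 1) scale. Spo11774, by contrast, had its higher means under high N in both tissues.

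Spo24631, matched to pectinesterase/pectinesterase inhibitor 51, held 4.02 to 5.16 FPKM in high N leaf and 8.24 to 14.1 FPKM in low N leaf. In root it held 89.9 to 93.2 FPKM under high N and 49.1 to 71.3 FPKM under low N. The leaf N difference minus the root N difference was -1.71.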

How the results depend on the processing

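The root excess of Spo11774 kept its direction and an adjusted p under 0.05 in all 21 alternatives, at 2.34 to 3.14. Its root N difference stayed positive and did not pass the adjusted threshold in any of 15 alternatives, at 0.72 to 1.33, with limma adjusted p from 0.212 to 0.899. In leaf the N difference of Spo11774 ranged from 1.29 to 2.27. That of Spo03956 ranged from 1.38 to 1.79 when 1 library was left out, and it was 3.02 with a pseudocount of 0.1 and 3.44 with voom. Without high N leaf replicate 3, and with a filter at 5 FPKM, Spo03956 did not reach the filter.

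Genes at an unadjusted p under 0.05 for N in root numbered 1993, and 977 to 3110 when 1 library was left out. At an adjusted p under 0.05 there were 5 genes, with 0 without a filter, 95 with all groups in 1 fit, 2 with voom and 0 to 18 when 1 library was left out. For N in leaf 0 genes passed the limma adjustment, with 34 in 1 fit of all groups, 3 with voom and 41 without low N leaf replicate 1. At an unadjusted p under 0.05 there were 1850, and 1310 to 2532 over the alternatives. The expansins called higher in leaf than in root, 2 in number, were 1 with the 5 FPKM filter, 3 without a filter and 1 to 2 when 1 library was left out. The median tissue difference of the XTH genes was 3.37 with voom, and that of the pectinesterase genes was -2.44.

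Signs turned for Spo08184 in the tissue comparison (-0.36 with median-of-ratios scaling and -0.34 with quantile normalization) and, when 1 library was left out, for N in root. There Spo08184 ranged from -0.36 to 0.032 (positive without high N root replicate 3 or low N root replicate 2) and Spo01779 from -0.70 to 0.36 (positive without low N root replicate 2). For N in leaf Spo09736 ranged from -1.06 to 0.12 (positive without high N leaf replicate 2). The cause was not tested.

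Replicate numbers were shared between groups, but the deviations of same-numbered libraries correlated at -0.02 to 0.10 in root and -0.01 to 0.27 in leaf, so the numbers were not taken as pairs for the N comparisons. Between leaf and root they correlated at 0.09 to 0.37 under high N, where 4 of 6 libraries correlated best with their own number. Under low N they correlated at 0.10 to 0.30, and 6 of 6 libraries did so. With the replicate block within N level Spo11774 was 2.88 higher in root (SE 0.29, limma adjusted p = 3.37e-05), and an exact permutation test that flipped the signs of the 6 pairs, chosen after seeing the data, gave p = 0.0312, the smallest it allows, with root higher in 6 of 6. For N in root, with a replicate block, 0 genes passed the adjusted threshold, and the limma adjusted p of Spo11774 there was 0.475.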
